A study of Mus musculus with 12 samples.

Results

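The 34 genes described here encode nuclear subunits of the last 3 machines of mitochondrial energy conversion in brown adipose tissue (BAT): complex III, the part of cytochrome c oxidase that is shared by all tissues, and ATP synthase, together with cytochrome c and the ATP synthase inhibitor. They were taken by name from the 25124 genes listed with TPM, as every symbol beginning with Uqcr or Atp5 plus Cyc1, Cycs, 6 oxidase subunits (Cox5a, Cox5b, Cox6b1, Cox6c, Cox7b and Cox7c) and Atpif1. This gave 9 genes of complex III, 1 of cytochrome c, 6 of the oxidase, 17 of ATP synthase and 1 inhibitor. TPM are read densities per transcript length, scaled within each library. Those of the listed genes summed to 56.55 to 57.55% of 1e6 at RT and 55.38 to 56.45% at TN. The tissue came from male mice aged 10 weeks that carried a whole-body Txnip deficiency (Txnip-/-, labelled TxnipKO) or were wild type (WT) and that had spent 1 week at room temperature (RT, 23 °C) or at thermoneutrality (TN, 30 °C). The groups were WT at RT, Txnip-/- at RT, WT at TN and Txnip-/- at TN, with 3 libraries each, and no other allele or agent was named. Txnip encodes thioredoxin-interacting protein, an alpha-arrestin that restrains glucose uptake. The deficiency was not limited to fat, so the tissue was compared in mice that lacked the gene in every organ.

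In the respiratory chain, complex III takes electrons from ubiquinol and hands them through its Rieske iron-sulphur protein and cytochrome c1 to cytochrome c, which carries them to cytochrome c oxidase. Both complexes pump protons, and ATP synthase lets the protons return through its membrane rotor, the c-ring, to turn the catalytic F1 head. In brown fat the uncoupling protein Ucp1 lets protons return without ATP synthesis. Brown fat mitochondria of rodents are known for much respiratory chain and little ATP synthase, and a low level of Atp5g1, 1 of the genes for the c subunit, is a known trait of the tissue.

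In units of 1e6 reads, the headers gave 29.93 to 47.44 per library, and TPM keep no count from which a counting error could be had. The targeted gene checked the labels, and Txnip stood at 564, 581 and 694 TPM in WT and 24.8, 26.9 and 35.4 TPM in Txnip-/- at RT, and at 1072 to 1238 TPM in WT and 10.5 to 14.4 TPM in Txnip-/- at TN. All 8 brown adipocyte markers were detected in each group, and their summed level was 10978 to 11620 TPM in WT at RT, 8886 to 10801 in Txnip-/- at RT, 6387 to 7270 in WT at TN and 3712 to 4231 in Txnip-/- at TN. Markers of other cells moved with the groups too. The 6 macrophage genes summed to 45.8 to 50.0, 78.8 to 139, 108 to 196 and 313 to 433 TPM in the same order of groups, and the 4 fibroblast genes to 164 to 204, 197 to 243, 272 to 375 and 640 to 651 TPM. The 7 skeletal muscle genes summed to 18.6 to 45.3 TPM in Txnip-/- at RT and to 2.42 to 15.2 TPM in the other groups. The 6 lymphocyte genes summed to 2.40 to 3.59 TPM in WT at RT, which the Txnip-/- libraries overlapped, and to 4.90 to 7.62 in WT and 8.17 to 12.4 in Txnip-/- at TN. The sums of the 4 endothelial genes were 176 to 221 TPM at RT and 258 to 325 TPM at TN. Those of the 5 general adipocyte genes were 18697 to 19307 TPM in WT and 17773 to 20837 TPM in Txnip-/- at RT. At TN they were 15417 to 16889 TPM in WT and 15306 to 17053 TPM in Txnip-/-, below the RT libraries in each genotype. For both lists the genotypes overlapped at each temperature. The 4 Schwann cell and nerve genes overlapped between all groups. No marker of these lists was at 0 in all libraries of a group. In bulk tissue a lower level can come from fewer brown adipocytes or from less RNA in each, and these cannot be told apart, so the part of these markers in the results that follow was not tested.

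The 34 genes took 6.26 to 6.44% of the TPM of all listed genes in WT at RT, 5.94 to 6.19% in Txnip-/- at RT, 5.71 to 5.96% in WT at TN and 5.20 to 5.35% in Txnip-/- at TN. The 3 libraries of each Txnip-/- group lay below the 3 of the WT group at the same temperature. TPM give levels per transcript length, so members can be ranked by them. Atp5b and Atp5a1, the beta and alpha subunits of the F1 head, ranked first and second in every group, with means of 5018 ± 23.6 and 2537 ± 70.4 TPM in WT at RT (SD, n = 3). At the other end stood Atp5g1, Atpif1, Atp5l, Atp5g2 and Cycs, in that order from the lowest, again in each of the 4 groups. The levels of these low genes are uncertain, through stretches shared with other genes or, for Atpif1, through its listed transcript length, as given below. In WT at RT, 16 of the 33 pairs of neighbours in the order of levels had ranges that did not overlap. In the other groups 11 to 15 pairs were apart, so much of the order in the middle was not resolved beyond the spread between libraries. Atp5g1 and Atpif1 were apart at RT and in WT at TN, but their ranges met in Txnip-/- at TN.

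**Figure D1:**
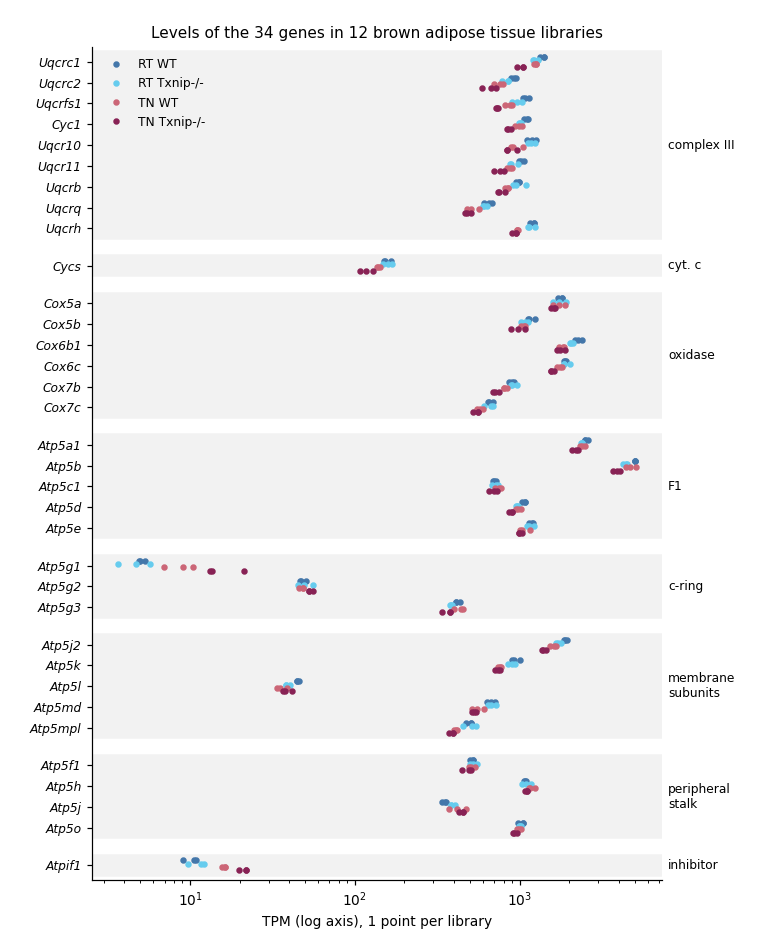
TPM of the 34 genes (log axis), 1 point per library, coloured by group, with the genes ordered by complex and by their part of ATP synthase. The groups of most genes lie close together, whereas Atp5g1 and Atpif1 sit at the left edge and their TN libraries lie to the right of their RT libraries.

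How well a level counts its own gene differs among the members. Short nuclear genes of oxidative phosphorylation have left many processed copies in the genome, and 15 of the 34 members had at least 1 stretch of 75 bases, the read length, that stood unchanged in an annotated transcript of another gene. At least 25% of the stretches were shared for 9 members: Atp5g2 (86.9%), Atp5l (63.4%), Atp5g1 (50.4%), Cox7c (44.6%), Atp5h (40.3%), Atp5md (34.7%), Uqcrb (29.1%), Atp5o (27.1%) and Cycs (26.1%). For Atp5l the stretches were spread over 9 pseudogenes. For Atp5o the leading other gene was a second annotated entry of the same name that overlaps its exons on the same strand. Its 27.1% is therefore not all shared with a copy elsewhere. How reads with several matches were counted is not given in the sources used here, so the levels of these genes are uncertain. Exons of 10 members also lay opposite to exons of another gene, among them Atp5j opposite to Gabpa, and whether strand was used in the counting is not stated.

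The first comparison asked what Txnip deficiency did at RT. No member was called, where a call needs a fold change below 0.8, or above its inverse, and an adjusted p under 0.05 (limma, Benjamini-Hochberg over all 11980 genes tested). Of all tested genes 0.76% were called higher and 0.726% lower. Before adjustment 12 members (35.3%) had p under 0.05, beside 16% of all genes, and 22 of 34 log2 fold changes were negative. Their median was -0.04 beside 0.03 over all tested genes. The 3 Txnip-/- libraries lay below the 3 WT libraries for 12 members, beside 7.58% of all genes, and above them for 1 member, beside 15.1%. The share of members below is a count of genes that share libraries and move together, and carries no test. After scaling to the upper quartile 31 of the 34 were negative, so the 9 small positive values of this comparison turned with the scaling.

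The members that differed most at RT were Atp5l and Atp5b on the low side and Atp5j on the high side. Atp5l, the g subunit at the membrane end of ATP synthase, measured 44.3, 44.9 and 46.0 TPM in WT and 40.7, 38.0 and 38.4 TPM in Txnip-/- at RT. Atp5b measured 4991, 5030 and 5033 TPM in WT and 4400, 4253 and 4480 TPM in Txnip-/-. In both genes the groups did not overlap, the fitted log2 fold changes were -0.20 ± 0.06 and -0.20 ± 0.05 (SE), and the adjusted p were 0.142 and 0.109. Atp5j, coupling factor 6 of the peripheral stalk, measured 354, 359 and 339 TPM in WT and 404, 383 and 385 TPM in Txnip-/-, a log2 fold change of 0.15 ± 0.05 with an adjusted p of 0.198.

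At TN the deficiency came with 2 calls, and both were on the high side. Atp5g1 was 1.72-fold and Atpif1 1.3-fold higher in Txnip-/- than in WT. No member was called lower, although 29 of the 34 log2 fold changes were negative under each scaling tried. With libraries shifted to a common median 1 member, Uqcrc1, was called lower, beside 2.92% of all genes. Among all 12891 genes tested 6.49% were called higher and 2.17% lower, so the share of members called higher (5.88%) was near that of all genes. The members' median was -0.11, beside 0.01 over all genes. For 16 of 34 members each Txnip-/- library was below each WT library, beside 13.4% of all genes, and for 3 members above it, beside 17.7%. Before adjustment 12 members (35.3%) had p under 0.05, beside 25.6% of all genes. After it 3 members (8.82%) had, beside 9.36% of all genes.

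**Figure D2:**
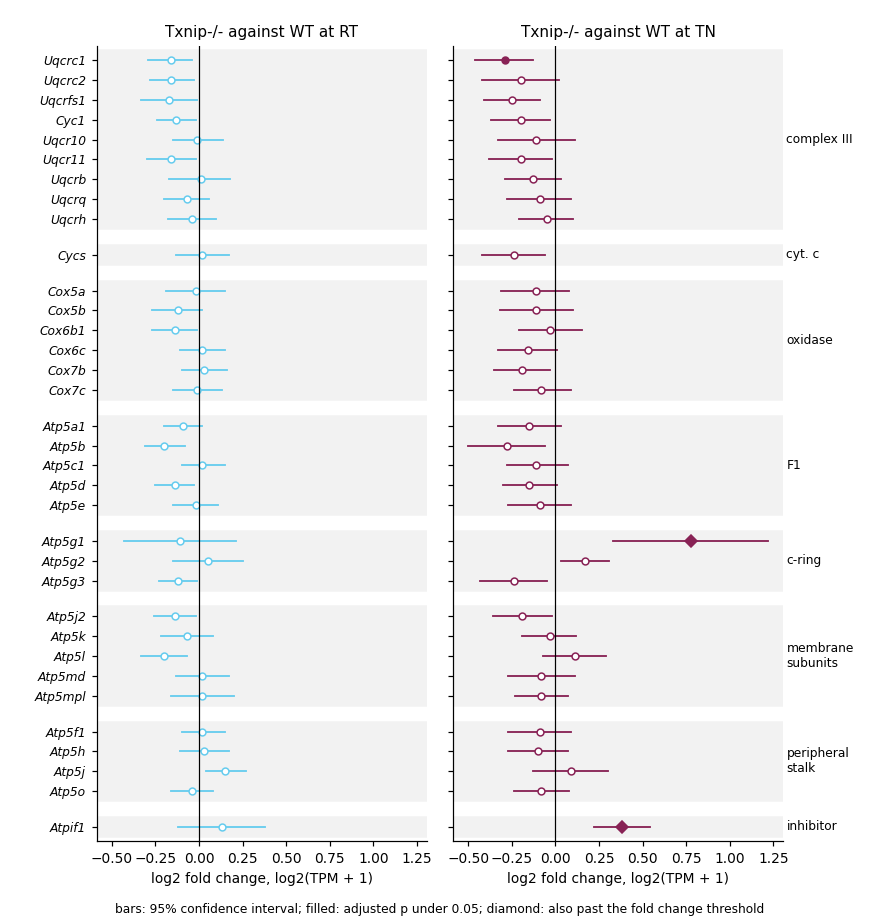
Log2 fold change of Txnip-/- over WT on the log2(TPM + 1) scale for each of the 34 genes at RT (left) and TN (right), with 95% confidence intervals as bars, filled symbols for an adjusted p under 0.05 and diamonds for a fold change past the threshold as well. At RT every symbol is open, and at TN Atp5g1 (0.78) and Atpif1 (0.38) stand to the right while 29 of the 34 genes lie left of 0.

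Complex III was the complex whose members lay lowest in Txnip-/- at TN. All 9 log2 fold changes were negative, from -0.29 for Uqcrc1 to -0.05 for Uqcrh, with a median of -0.20, and for 6 genes every Txnip-/- library was lower, beside 13.4% of all genes. Uqcrc1, a core protein that faces the matrix, lies at chr9:108936648-108949641 on the plus strand of mm10 (NM_025407). It measured 1264, 1232 and 1266 TPM in WT and 969, 1054 and 1046 TPM in Txnip-/- at TN. The Txnip-/- libraries were all lower, and the log2 fold change of -0.29 ± 0.07 passed the adjusted p (0.0422) but not the fold threshold. That p rested on all 6 libraries: it ran from 0.0743 to 0.167 when any 1 of them was left out.

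The electron carriers of the complex are Uqcrfs1 and Cyc1. Uqcrfs1, the Rieske iron-sulphur protein, measured 898, 821 and 878 TPM in WT and 726, 721 and 736 TPM in Txnip-/- at TN (log2 fold change -0.25 ± 0.07, adjusted p 0.0618). Cyc1, cytochrome c1, measured 1034, 938 and 991 TPM in WT and 849, 841 and 892 TPM in Txnip-/- at TN (-0.20 ± 0.07, adjusted p 0.134). Neither gene overlapped between the genotypes. Uqcrc2, the other core protein, and Uqcr11 both stood at -0.20, with adjusted p of 0.228 and 0.15. Uqcrh, the acidic hinge protein that helps cytochrome c1 meet cytochrome c, was the least moved, with 973, 966 and 963 TPM in WT and 952, 946 and 902 TPM in Txnip-/-. Its interval for the log2 fold change ran from -0.21 to 0.10.

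At RT the carriers and core proteins were, with Uqcr11, again at the low end of complex III. Uqcrfs1 measured 1148, 1047 and 1076 TPM in WT and 902, 1036 and 972 TPM in Txnip-/- (-0.17 ± 0.07, adjusted p 0.275). Cyc1 measured 1124, 1065 and 1116 TPM in WT and 999, 1006 and 1019 TPM in Txnip-/- (-0.13 ± 0.05, adjusted p 0.244). Uqcrc1 measured 1414, 1340 and 1414 TPM in WT and 1202, 1222 and 1295 TPM in Txnip-/- (-0.16 ± 0.05, adjusted p 0.196). For these 3 genes the groups were apart at RT too, and none passed the adjusted p. Uqcrb, a supernumerary subunit, stood highest within the complex at 0.01, a sign that turned with the scaling, with 996, 946 and 989 TPM in WT and 953, 1092 and 909 TPM in Txnip-/-, which overlapped. Over the 9 genes the median was -0.13 at RT.

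Cytochrome c, from Cycs (chr6:50562563-50566569, minus strand, NM_007808), carries electrons between the complexes and also takes part in apoptosis. It measured 153, 151 and 165 TPM in WT and 158, 169 and 149 TPM in Txnip-/- at RT, so the genotypes overlapped there. At TN it measured 137, 142 and 139 TPM in WT and 117, 107 and 129 TPM in Txnip-/-, with every Txnip-/- library lower. The log2 fold change at TN was -0.24 ± 0.08 with an adjusted p of 0.0976. The difference between the genotype effects at TN and RT was -0.26 ± 0.10, with p 0.0246 before and 0.329 after adjustment.

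None of the 6 ubiquitous oxidase subunits passed the adjusted p between genotypes at either temperature, although Cox7b did at TN (0.0445) where all 12 libraries shared 1 fit. In that fit 7 members passed as lower in Txnip-/- at TN (Uqcrc1, Uqcrfs1, Cyc1, Cox7b, Atp5b, Atp5g3 and Atp5j2), beside 4.08% of all genes, and none at RT. The medians of the 6 oxidase subunits were -0.02 at RT and -0.11 at TN, where all 6 values were negative. Their summed level was 8392 to 8956 TPM in WT and 8150 to 8775 TPM in Txnip-/- at RT, which overlapped, and 7637 to 7977 against 6939 to 7403 TPM at TN, which did not. Cox7b, a small membrane subunit, was the lowest at TN, with 806, 805 and 845 TPM in WT and 692, 710 and 748 TPM in Txnip-/- (-0.19 ± 0.07, adjusted p 0.125). At RT the same gene measured 906, 865 and 920 TPM in WT and 901, 960 and 886 TPM in Txnip-/-, which overlapped. Its difference between temperatures was -0.22 ± 0.08, with p 0.0157 before and 0.289 after adjustment. Cox6b1, which faces the intermembrane space, measured 2251, 2171 and 2389 TPM in WT and 2012, 2111 and 2064 TPM in Txnip-/- at RT (-0.14 ± 0.06, adjusted p 0.279), and 1852, 1839 and 1748 TPM against 1684, 1879 and 1758 TPM at TN, where the groups overlapped. Cox5a, Cox5b, Cox6c and Cox7c had log2 fold changes from -0.16 to -0.08 at TN, and of these only Cox6c had groups that did not overlap.

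Of 7 tissue-specific oxidase isoforms, a list outside the 34 genes, 4 were tested and 2 were called lower between genotypes, 1 at RT and both at TN, where 0.726% and 2.17% of all genes were called lower. Cox7a1, the muscle and brown fat form of subunit 7a, was called lower in Txnip-/- at RT (-0.40 ± 0.06, adjusted p 0.0289) and at TN (-0.47 ± 0.09, adjusted p 0.0184). Cox8b, the corresponding form of subunit 8 and also in the brown adipocyte list, was called lower at TN (-1.24 ± 0.12, adjusted p 0.00297). Cox4i2 stood at -0.20 at RT and 0.02 at TN, and Cox6b2 at -0.06 and -0.02, and neither passed. The 5 other ubiquitous oxidase subunits (Cox4i1, Cox6a1, Cox7a2, Cox7a2l and Cox8a) gave 0 calls in either genotype comparison with limma, and their log2 fold changes lay between -0.09 and 0.10.

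Within ATP synthase Atp5g1 was the member called in Txnip-/- at TN, and none of the 5 F1 genes passed the adjusted p. The F1 genes (Atp5a1, Atp5b, and the central stalk subunits Atp5c1, Atp5d and Atp5e) had negative values at TN, with a median of -0.15, and Atp5c1 and Atp5e overlapped between the genotypes. Atp5b (chr10:128083307-128090388, plus strand, NM_016774), which holds the catalytic sites, measured 5114, 4659 and 4401 TPM in WT and 3882, 3707 and 4076 TPM in Txnip-/- at TN. Its libraries did not overlap, and the log2 fold change of -0.28 ± 0.09 had an adjusted p of 0.108, or 0.0207 with all 12 libraries in 1 fit. Summed over the 5 genes, F1 stood at 9687 to 10349 TPM in WT and 8375 to 8937 TPM in Txnip-/- at TN, and at 10390 to 10595 and 9568 to 9649 TPM at RT. The peripheral stalk genes Atp5f1, Atp5h, Atp5j and Atp5o had values from -0.10 to 0.09 at TN, none with an adjusted p under 0.05, and their summed level was 3025 to 3245 TPM in WT and 2887 to 3009 TPM in Txnip-/- there, while it overlapped between the genotypes at RT. The membrane subunits Atp5j2, Atp5k, Atp5l, Atp5md and Atp5mpl had values from -0.19 to 0.11.

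The c subunit of the rotor is encoded by Atp5g1, Atp5g2 and Atp5g3, whose precursors differ in the import peptide while the mature protein is the same. Their promoters are shown because the 3 genes make the same protein and differed in how they moved. In the RefSeq promoter table for GRCm38.p6, 26 of the 34 members had an entry, and Cyc1, Uqcrc2, Uqcrb, Uqcrq, Cox6c, Atp5a1, Atp5mpl and Atp5f1 had none. The 250 bases before each start were searched on both strands for CGCATGCG, the core of the NRF1 motif, CCGGAAGT, an ETS motif of the kind GABPA binds, and TCAAGGTCA, the motif of the oestrogen-related receptors. These factors are known regulators of mitochondrial genes. The lines below give the longest stretch of each window outside annotated exons, 5′ to 3′ on the strand of the gene, with a match in capitals: Atp5g1 at chr11:96075695-96075881 (the 63 bases inside its listed transcript left out), Atp5g2 at chr15:102671128-102671297, Atp5g3 at chr2:73911327-73911576, all on the minus strand.
Atp5g1: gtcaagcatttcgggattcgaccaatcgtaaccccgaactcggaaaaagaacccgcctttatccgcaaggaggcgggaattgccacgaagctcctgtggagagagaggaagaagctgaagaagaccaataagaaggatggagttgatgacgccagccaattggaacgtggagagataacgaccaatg
Atp5g2: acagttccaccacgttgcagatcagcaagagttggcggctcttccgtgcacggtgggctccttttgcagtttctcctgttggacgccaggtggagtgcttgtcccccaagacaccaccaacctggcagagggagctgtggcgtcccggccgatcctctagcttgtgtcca
Atp5g3: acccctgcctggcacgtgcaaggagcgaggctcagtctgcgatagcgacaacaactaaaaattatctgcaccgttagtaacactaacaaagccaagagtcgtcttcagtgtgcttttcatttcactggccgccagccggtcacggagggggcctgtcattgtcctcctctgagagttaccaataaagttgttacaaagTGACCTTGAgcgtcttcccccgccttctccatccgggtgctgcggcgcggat

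Atp5g3 held the oestrogen-related receptor motif on the opposite strand, Atp5g2 held CGCATGCG in the exonic part of its window that is not printed, and no searched motif was found in the window of Atp5g1. Among the 26 members CGCATGCG was found for 5 (Cycs, Atp5g2, Atp5k, Atp5l and Atp5j), CCGGAAGT for 3 (Uqcr11, Uqcrh and Atp5h) and TCAAGGTCA for 1 (Atp5g3). Among all 32851 promoters of the table the shares were 1.55%, 2.88% and 0.387%. The members' windows also held a median of 14.5 CG dinucleotides, beside 6 over all promoters. A match describes letters and no binding was measured here.

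The next promoters belong to 2 genes outside the c-ring that were called in a comparison below. They are printed in the same way, Cycs at chr6:50566570-50566642 and Atpif1 at chr4:132535415-132535549, both on the minus strand, and the capitals in Cycs mark CGCATGCG.
Cycs: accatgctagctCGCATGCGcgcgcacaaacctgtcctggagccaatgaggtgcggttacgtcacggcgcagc
Atpif1: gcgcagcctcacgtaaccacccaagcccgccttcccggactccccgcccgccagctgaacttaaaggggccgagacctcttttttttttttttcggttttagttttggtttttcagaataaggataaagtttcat

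Atp5g1 (chr11:96072793-96075694, minus strand, NM_007506) was the lowest of the 34 genes. It measured 5.30, 5.0 and 4.87 TPM in WT and 3.67, 4.67 and 5.68 TPM in Txnip-/- at RT, where the genotypes overlapped. At TN it measured 6.95, 9.07 and 10.4 TPM in WT and 13.6, 21.2 and 13.3 TPM in Txnip-/-, so that each TN Txnip-/- library was above each of the 9 others. The log2 fold change at TN was 0.78 ± 0.19 with an adjusted p of 0.0442. This call was close to the threshold: over the alternative settings the adjusted p ran from 0.0185 to 0.104, and leaving out libraries it ran from 0.0489 to 0.109, with 5 of 6 omissions ending the call (all but that of Txnip-/- replicate 3). It was also lost without the filter on low values, with libraries shifted to a common median and without the expression trend. The authors' log-scale table for TN lists another transcript of Atp5g1, NM_001161419, and so gives no second value of the same feature. The difference between the genotype effects at TN and RT was 0.89 ± 0.26, with p 0.00534 before and 0.225 after adjustment.

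Atp5g2 (chr15:102662868-102671047, minus strand, NM_026468) measured 46.6, 47.4 and 50.4 TPM in WT and 56.1, 45.3 and 49.1 TPM in Txnip-/- at RT, and 46.1, 48.5 and 48.8 TPM against 53.1, 55.7 and 52.9 TPM at TN. The groups were apart at TN only, with a log2 fold change of 0.17 ± 0.06 and an adjusted p of 0.123. Atp5g3 (chr2:73908447-73911326, minus strand, NM_175015) had the highest TPM of the 3. This order is uncertain, since Atp5g2 and Atp5g1 share 86.9% and 50.4% of their stretches of read length with other genes, and Atp5g3 0%. Atp5g3 measured 433, 410 and 410 TPM in WT and 386, 388 and 377 TPM in Txnip-/- at RT (-0.12 ± 0.05, adjusted p 0.271), and 398, 442 and 455 TPM against 379, 337 and 380 TPM at TN (-0.24 ± 0.08, adjusted p 0.114). Txnip-/- libraries were lower at both temperatures.

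The share of Atp5g1 in the summed TPM of the 3 c subunit genes was 1.07% ± 0.0236 in WT at RT, 1.07% ± 0.245 in Txnip-/- at RT, 1.80% ± 0.245 in WT at TN and 3.72% ± 1.22 in Txnip-/- at TN (SD, n = 3). Atp5g3 made up 88.1 to 89.3%, 86.6 to 88.6%, 88.2 to 88.5% and 81.4 to 85.2% in these groups. These shares are uncertain, because Atp5g1 and Atp5g2 have many stretches in common with other genes and Atp5g3 has none. The summed level of the 3 genes was 451 to 514 TPM in WT and 414 to 446 TPM in Txnip-/- at TN, so the sum, which is mostly Atp5g3, was lower in each Txnip-/- library although Atp5g1 was higher.

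Atpif1 (chr4:132530555-132535414, minus strand, NM_007512) encodes IF1, which blocks ATP synthase from running backwards and hydrolysing ATP. It measured 10.8, 10.5 and 9.10 TPM in WT and 12.2, 11.6 and 9.70 TPM in Txnip-/- at RT, which overlapped. At TN it measured 15.6, 16.3 and 16.2 TPM in WT and 22.0, 21.8 and 19.8 TPM in Txnip-/-, with all 3 above the highest WT value. The log2 fold change at TN was 0.38 ± 0.07 with an adjusted p of 0.0161, and the call was lost when Txnip-/- replicate 1 or 2 at TN was left out, where the adjusted p reached 0.0719, and with the authors' log-scale values. Set against Atp5b, Atpif1 amounted to 0.202% ± 0.0189 in WT at RT, 0.256% ± 0.0340 in Txnip-/- at RT, 0.341% ± 0.0331 in WT at TN and 0.547% ± 0.0545 in Txnip-/- at TN. The transcript listed for Atpif1 is 1485 bases long, and the annotated transcript with the same accession 539 bases, so its TPM may be on a scale of its own.

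**Figure D3:**
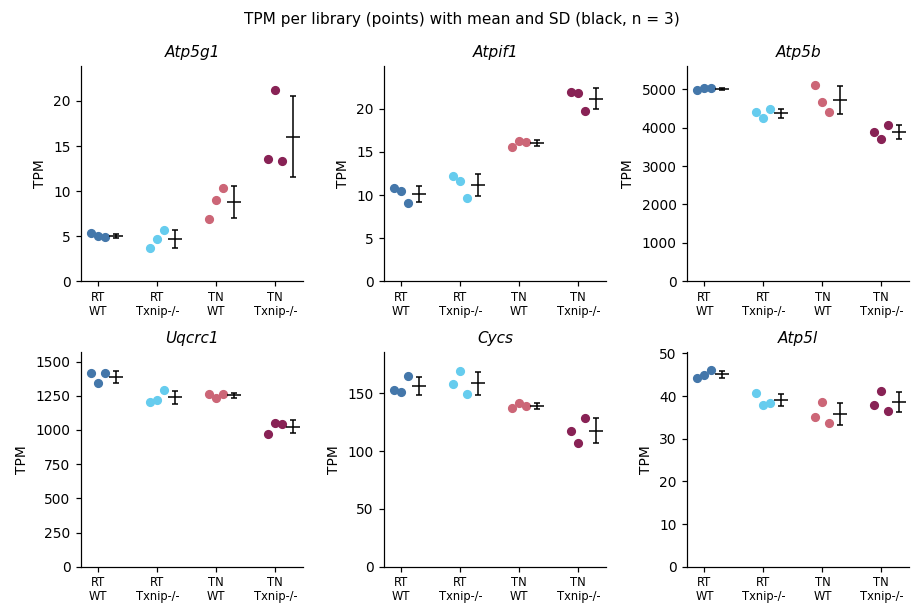
TPM of Atp5g1, Atpif1, Atp5b, Uqcrc1, Cycs and Atp5l in each of the 12 libraries (coloured points), with the mean and SD of each group in black (n = 3) and axes that start at 0. Atp5g1 and Atpif1 are highest in Txnip-/- at TN, Atp5b, Uqcrc1 and Cycs are lowest there, and Atp5l is highest in WT at RT.

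Whether the deficiency acted differently at the 2 temperatures was tested as an interaction over all 12 libraries. No member passed an adjusted p of 0.05 in limma, and 5 had an unadjusted p under 0.05: Atp5g1, Atp5l, Cox7b, Cycs and Cox6c. These are 14.7% of the members, beside 12.6% of all genes. Among 12486 genes 0% were called higher and 0.00801% lower, which is Txnip itself. The members' median was -0.07, beside -0.02 over all genes. For Atp5l every Txnip-/- library at RT lay below the WT mean, while at TN the values were 35.0, 38.7 and 33.7 TPM in WT and 37.9, 41.3 and 36.6 TPM in Txnip-/-, all above the WT mean. Its interaction was 0.31 ± 0.09 with an adjusted p of 0.232.

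The temperature comparison in WT gave larger differences. Thermoneutral housing removes the need for heat, and Ucp1 fell from a mean of 3982 TPM at RT to 814 TPM at TN (adjusted p 0.000148). Among the 34 members 2 were called higher at TN (Atp5g1 and Atpif1) and 4 lower (Uqcrfs1, Uqcrq, Cox6b1 and Atp5l), beside 31.4% of all genes called higher and 6.39% lower. In all 19 (55.9%) passed the adjusted p, beside 50.3% of all genes. The count called lower was 1 without WT replicate 3 at RT and 7 without WT replicate 2 at RT. The shares of all genes under these omissions are not given here, so a change over all genes cannot be set apart. The members' median was -0.15 where the median of all genes was 0.18. With libraries shifted to a common median the members stood at -0.33, 31 of 34 were negative, and 18 (52.9%) were called lower, beside 14.7% of all genes under that scaling. All TN libraries lay below all RT libraries for 21 members, beside 12% of all genes, and above for 4, beside 45.5%.

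In Txnip-/- the same comparison called 2 members higher (again Atp5g1 and Atpif1) and 10 lower, beside 30.9% and 8.27% of all genes. The 10 were Uqcrc2, Uqcrfs1, Uqcr10, Uqcrb, Uqcrq, Uqcrh, Cycs, Cox7b, Atp5md and Atp5mpl. In all 21 members (61.8%) passed the adjusted p, beside 51.4% of all genes. The count called lower was 4 without Txnip-/- replicate 2 at RT, again with no share of all genes given beside it. The median was -0.22 beside 0.15 over all genes, and -0.41 with libraries shifted to a common median, where 21 were called lower, beside 19.5% of all genes. TN libraries lay below RT libraries for 23 members, beside 16.9% of all genes, and above for 3, beside 44.1%. That more members were called in Txnip-/- than in WT is not a tested difference, since no member passed the interaction.

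**Figure D4:**
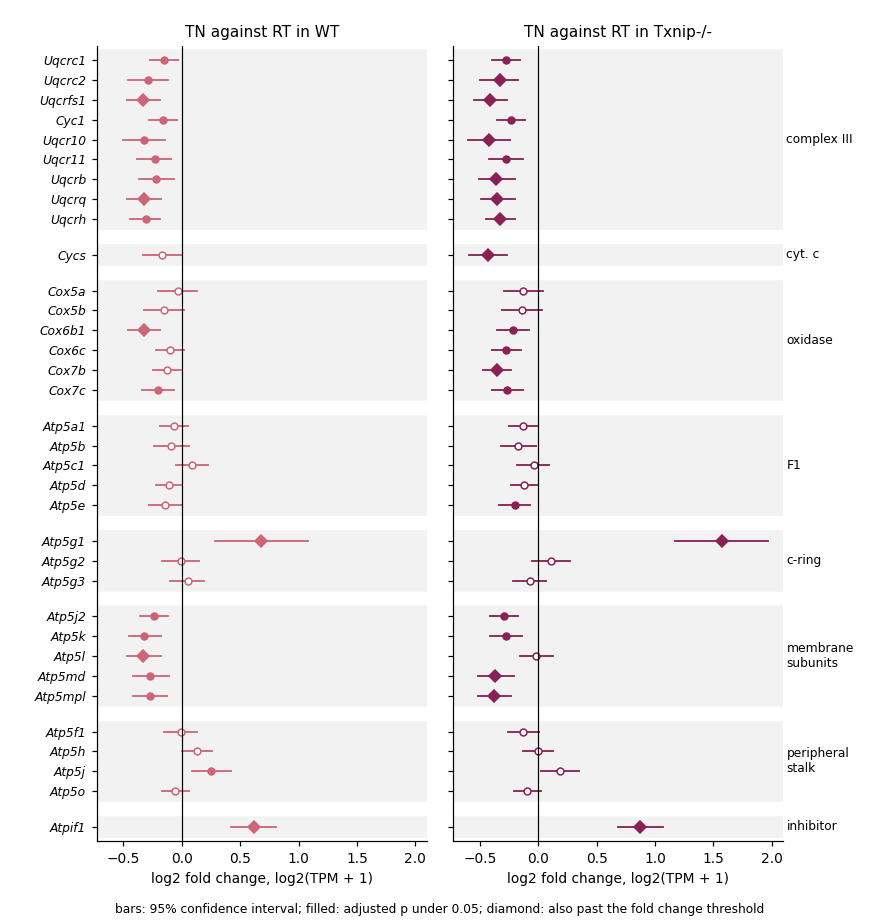
Log2 fold change of TN over RT on the log2(TPM + 1) scale for each of the 34 genes in WT (left) and Txnip-/- (right), with 95% confidence intervals, filled symbols for an adjusted p under 0.05 and diamonds for a fold change past the threshold as well. All 9 complex III genes are filled and left of 0 in both panels, most F1 and peripheral stalk symbols are open (Atp5j at 0.25 in WT and Atp5e at -0.20 in Txnip-/- are filled), and Atp5g1 (0.68 in WT, 1.57 in Txnip-/-) and Atpif1 (0.62 and 0.87) stand to the right.

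All 9 complex III genes were lower at TN with an adjusted p under 0.05 in each genotype. Of all genes 9.87% passed as lower in WT and 13.5% in Txnip-/-. In Txnip-/- all 9 passed with any library left out. In WT 5 did (Uqcrc2, Uqcrfs1, Uqcr10, Uqcrq and Uqcrh), while the adjusted p reached 0.124 for Uqcrc1, 0.116 for Cyc1, 0.0645 for Uqcrb and 0.0528 for Uqcr11. In WT the values ran from -0.33 to -0.15 with a median of -0.29, and 2 were called. In Txnip-/- they ran from -0.42 to -0.23 with a median of -0.33, and 6 were called. The TN libraries lay below the RT libraries for all 9 genes in both genotypes, beside 12% of all genes in WT and 16.9% in Txnip-/-. Uqcrfs1 fell in both, with the TPM given above, by 0.33 ± 0.06 in WT (adjusted p 0.0016) and by 0.41 ± 0.06 in Txnip-/- (adjusted p 0.000321) on the log2 scale. Uqcrq, a subunit close to the ubiquinone site, measured 657, 612 and 676 TPM in WT at RT and 483, 508 and 564 TPM in WT at TN, a fall of 0.32 ± 0.07 (adjusted p 0.0024). In Txnip-/- Uqcrq measured 599, 637 and 612 TPM at RT and 465, 505 and 483 TPM at TN. Uqcr10 was the most changed complex III gene in Txnip-/-, with 1127, 1239 and 1176 TPM at RT and 844, 963 and 841 TPM at TN (-0.42 ± 0.08, adjusted p 0.00134), and in WT it measured 1184, 1117 and 1257 TPM at RT and 885, 918 and 1054 TPM at TN. Uqcrb in Txnip-/- fell to 748, 742 and 812 TPM at TN (-0.36 ± 0.07, adjusted p 0.00141), and in WT it measured 821, 848 and 850 TPM there. The summed level of complex III was 9156 to 9761 TPM in WT at RT, 8586 to 9312 in Txnip-/- at RT, 7829 to 8172 in WT at TN and 6926 to 7192 in Txnip-/- at TN, so only the RT groups overlapped.

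Cycs fell with temperature in Txnip-/- (-0.43 ± 0.07, adjusted p 0.000517), while in WT the value was -0.17 ± 0.07 with an adjusted p of 0.0711, and -0.35 with an adjusted p of 0.0054 where libraries were shifted to a common median. Among the oxidase genes Cox6b1 was called in WT (-0.32 ± 0.06, adjusted p 0.00149) and Cox7b in Txnip-/- (-0.35 ± 0.06, adjusted p 0.000344). Cox6b1 stood at -0.22 in Txnip-/- with an adjusted p of 0.0112 and Cox7b at -0.13 in WT with an adjusted p of 0.0666, or 0.00363 after that shift. Of the 6 oxidase genes 2 passed as lower in WT and 4 in Txnip-/-, but 5 and 6 did with upper-quartile scaling or the shift, so these counts depended on the scaling. All 6 oxidase genes had negative values in both genotypes, with medians of -0.14 and -0.24. Cox5a was nearest to 0, at -0.03 in WT and -0.13 in Txnip-/-.

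For the parts of ATP synthase the counts were as follows. In WT the 5 membrane subunits all passed the adjusted p and were lower at TN, from -0.33 to -0.24 with a median of -0.27, where 9.87% of all genes passed as lower. None of the 5 F1 genes passed, and their median was -0.09, but this count depended on the scaling: with upper-quartile scaling or libraries shifted to a common median 4 of the 5 passed (Atp5a1, Atp5b, Atp5d and Atp5e), all lower at TN, and the membrane subunits again numbered 5, where 15.8% and 21.6% of all genes passed as lower. Of the 4 peripheral stalk genes only Atp5j passed, and it was higher (0.25 ± 0.08, adjusted p 0.0159), with 372, 417 and 471 TPM in WT at TN against 354, 359 and 339 TPM at RT. Its value fell to 0.14 with upper-quartile scaling and to 0.07 with libraries shifted to a common median, where its adjusted p was 0.485, and without WT replicate 3 at TN the adjusted p was 0.0562. Gabpa, whose exons overlap those of Atp5j on the other strand, was called higher in the same comparison (0.57 ± 0.12, adjusted p 0.00221), and reads from the pair cannot be told apart without strand. Shifting libraries to a common median moves all genes by nearly the same amount, and the medians in WT became -0.46 for the membrane subunits, -0.27 for F1 and -0.12 for the peripheral stalk, which had stood at 0.06.

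In Txnip-/- 4 of the 5 membrane subunits passed the adjusted p as lower at TN, where 13.5% of all genes did. Atp5md, also known as DAPIT, which helps ATP synthase dimers form, measured 672, 723 and 648 TPM at RT and 512, 542 and 529 TPM at TN (-0.37 ± 0.07, adjusted p 0.0015). Atp5mpl, a small proteolipid, measured 514, 547 and 455 TPM at RT and 395, 374 and 397 TPM at TN (-0.38 ± 0.07, adjusted p 0.000854). Both had TN libraries that lay below all RT libraries. In WT they measured 670, 638 and 706 against 551, 513 and 612 TPM for Atp5md, and 508, 474 and 509 against 400, 414 and 417 TPM for Atp5mpl. The exception was Atp5l. It was called lower at TN in WT (-0.33 ± 0.07, adjusted p 0.00205) and stood at -0.02 ± 0.07 in Txnip-/- (adjusted p 0.855), where its RT libraries were already below those of WT. Of F1 only Atp5e passed in Txnip-/- (-0.20 ± 0.06, adjusted p 0.0183, and 0.0791 without Txnip-/- replicate 2 at RT), and the peripheral stalk had no gene with an adjusted p under 0.05. Here too the scaling decided the counts, since with libraries shifted to a common median all 5 F1 genes, 3 of the 4 stalk genes (Atp5f1, Atp5h and Atp5o) and all 5 membrane subunits passed, each lower at TN, where 27.7% of all genes did. The summed level of the membrane subunits was 3903 to 4217 TPM in WT at RT and 3273 to 3486 TPM in WT at TN, so the temperatures were far apart. That of F1 nearly met in WT, with the highest TN library at 10349 and the lowest RT library at 10390 TPM. In Txnip-/- both sums were apart. The membrane subunits stood at 3695 to 4033 TPM at RT and 3032 to 3176 TPM at TN, and F1 at 9568 to 9649 and 8375 to 8937 TPM.

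Transcript length differs between these parts. The membrane subunits and most small complex III subunits have transcripts of at most 600 bases in the files, and the 16 members of that length had a median of -0.24 at TN in WT, the 8 of over 600 to 1200 bases -0.02, and the 10 longer ones -0.15. Spearman's rho between length and log2 fold change was 0.34 over the 34 members in WT and 0.16 in Txnip-/-, as a description over genes that share libraries. Between genotypes it was -0.11 at RT and -0.43 at TN, where the medians were -0.08, -0.11 and -0.20 from the short to the long members. Over other genes with a mean of at least 100 TPM rho was -0.17 at TN. Over all 12486 genes in WT, the 620 of at most 600 bases had a median of 0.10 and the 10556 over 1200 bases one of 0.19. Among the other genes of at least 100 TPM in WT, the 95 short ones had a median of 0.05 and the 519 long ones -0.01. The part of length in the members' values was not tested.

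The called rises of Atp5g1 and Atpif1 at TN stood in both genotypes. Atp5g1 rose at TN by a log2 fold change of 0.68 ± 0.18 in WT (adjusted p 0.00993) and 1.57 ± 0.18 in Txnip-/- (adjusted p 5.74e-05), or 1.6-fold and 2.97-fold on the log2(TPM + 1) scale, which understates changes of low genes. Atpif1 rose by 0.62 ± 0.09 (adjusted p 0.000337) and 0.87 ± 0.09 (adjusted p 2.7e-05). Both calls held under the 7 alternative settings run for these comparisons, which do not include the authors' log-scale values, and with each library left out, with adjusted p of at most 0.0492 for Atp5g1 and 0.00244 for Atpif1. The other c subunit genes did not pass: Atp5g2 stood at -0.01 and 0.11, and Atp5g3 at 0.05 and -0.07, in WT and Txnip-/-. With libraries shifted to a common median Atp5g2 passed as lower in WT and Atp5g3 as lower in Txnip-/-.

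**Figure D5:**
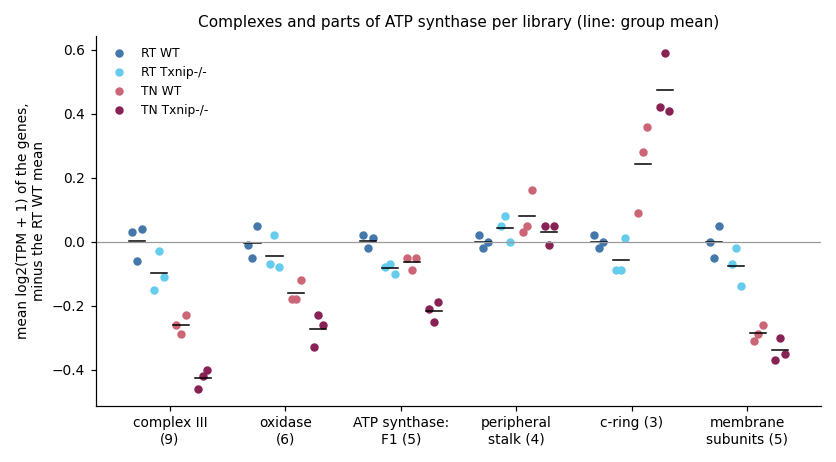
Mean log2(TPM + 1) over the genes of each complex or part of ATP synthase in each library, as the difference from the mean of WT at RT, with black lines at the group means and the number of genes in brackets. Complex III and the membrane subunits drop at TN, the F1 and peripheral stalk means move less, and the c-ring mean rises because Atp5g1 weighs as much as Atp5g3 in it.

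Other genes of these pathways, from lists chosen by function, gave few calls in the genotype comparisons. Of 6 complex III assembly factors none was called in Txnip-/- against WT, with medians of -0.08 at RT and -0.21 at TN. Uqcc3 was called lower at TN in WT and Bcs1l, which inserts the Rieske protein, in Txnip-/- (-0.41 ± 0.08, adjusted p 0.00163). Of 22 oxidase assembly factors 1 was called lower in Txnip-/- at TN, where 2.17% of all genes were, Cmc2 (-0.44 ± 0.07, adjusted p 0.0095), and of 4 ATP synthase assembly factors Tmem70, which helps the c-ring form, was called lower there (-0.36 ± 0.08, adjusted p 0.0271). Tmem70 averaged 108 TPM in WT and 84.4 TPM in Txnip-/- at TN, and 121 and 122 TPM at RT. With temperature, Tmem70 and Atpaf2, which helps F1 assemble, were called lower in Txnip-/- (-0.53 ± 0.07 and -0.54 ± 0.07, with adjusted p of 0.000137 and 0.000122). Of the 22 oxidase assembly factors 3 were called lower (Cox19, Sco1 and Sco2) and 1 higher (Cmc1) at TN in WT, and 6 lower in Txnip-/- (Cox11, Cox17, Cox19, Sco1, Sco2 and Cmc2), where 6.39% and 8.27% of all genes were called lower and, in WT, 31.4% higher.

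Complex I, the largest entry complex of the chain, had 38 of 40 subunit genes tested, with medians of -0.04 at RT and -0.09 at TN between genotypes, and 1 call, Ndufv1 at TN (-0.36 ± 0.07, adjusted p 0.0218), a share near the 2.17% of all genes called lower there. At TN against RT its median was -0.11 in WT and -0.17 in Txnip-/-, beside -0.29 and -0.33 for complex III. The 4 complex II genes had medians of -0.12 and -0.19 between genotypes with 0 calls in limma, and the carriers Slc25a3, Slc25a4 and Slc25a5, which bring phosphate and exchange ADP for ATP, also had none. No mitochondria-encoded subunit was listed, so those of complex III, the oxidase and ATP synthase, among them its a subunit, were not analysed here.

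Of 10 regulators of mitochondrial genes, 2 were called lower in Txnip-/- at TN, where 2.17% of all genes were, Esrra (-0.41 ± 0.08, adjusted p 0.022) and Perm1 (-1.41 ± 0.22, adjusted p 0.0106), and none at RT. Esrra, an oestrogen-related receptor, averaged 130 TPM in WT and 97.7 TPM in Txnip-/- at TN. Perm1, a partner of Ppargc1a, averaged 28.0 and 10.2 TPM. Ppargc1a, the coactivator of mitochondrial biogenesis, was called lower at TN than at RT in Txnip-/- (-1.95 ± 0.36, adjusted p 0.000909). So was Esrra (-0.35 ± 0.09, adjusted p 0.00829), where 8.27% of all genes were called lower. In WT Ppargc1a stood at -0.86 and was not called. In WT 5 of the 10 regulators were called higher at TN, where 31.4% of all genes were: Perm1 (1.02 ± 0.25, adjusted p 0.0055), Gabpa (0.57), Esrrg (0.50), Gabpb1 (0.37) and Nrf1 (0.34). In Txnip-/- Esrrg, Gabpb1 and Nrf1 were called higher, where 30.9% of all genes were. Which of these bear on the members was not tested.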

How the data were processed

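RNA of BAT was sequenced after poly-A selection, in single-end reads of 75 bases, from 12 libraries in 4 groups of 3. The labels do not say how the 3 libraries of a group were drawn, so p-values measure the spread between these libraries. According to the methods and the submitters' processing notes, the authors aligned reads with STAR 2.7.5a to mm10 and used HOMER 4.11.1 to make the deposited TPM per gene (1 transcript per gene). The authors also deposited log2-scale values per temperature, used here as an alternative only, beside columns of their own comparisons (fold changes and p-values), which were not used.

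TPM were taken as deposited, as log2(TPM + 1), for genes whose mean over the libraries fitted reached 1 TPM. limma 3.58.1 (R 4.3.3) with a trend of variance on expression gave two-sided tests, adjusted by Benjamini-Hochberg over all genes tested. A call needed a fold change above 1.25 or below 0.8 and an adjusted p under 0.05, and the interaction only the latter. Genotypes were compared within 6 libraries, and the interaction and temperatures over all 12, so comparisons share libraries. The procedure was tested on simulated data. Alternatives were the pseudocount, filter, scaling, trend, threshold, authors' values, the libraries that share a fit, a replicate block and each library left out.

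Every member is named, and library values are given for members called (at most the 3 most changed of a complex), for the extremes of each complex, and for Cyc1, Cycs, Atpif1 and the c subunit genes. The members and gene lists were chosen with earlier results of these data known.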

Additional observations from a re-analysis of the deposited data

Results flagged for a closer look

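Atp5l, the g subunit of ATP synthase, was set apart because its genotype effect had opposite directions at the 2 temperatures: every Txnip-/- library lay below the WT mean at RT and above it at TN. The log2 fold change of Txnip-/- over WT at RT was -0.20 and that at TN 0.11, which differ by 0.31 ± 0.09 (SE) with an adjusted p of 0.232 (limma, over all 12486 genes), so the difference did not pass the test. The adjusted p ran from 0.174 to 0.445 over the alternatives and omissions. Of the stretches of read length in Atp5l 63.4% were shared with other genes, and the part of this in the result was not tested.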

How the results depend on the processing

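No call changed direction under any alternative. Without regard to fold, Atp5h in Txnip-/- stood at 0.0008 at TN against RT and at -0.19 with an adjusted p of 0.0445 with median centring. At TN, members called higher in Txnip-/- were 1 in place of 2 without the filter, with median centring and without the trend, and 0 with the authors' log-scale values, where Atpif1 stood at 0.24 and Atp5g1, listed there as another transcript, at 0.39. There, 8 members have another transcript in a table. With a library left out they numbered 0 to 2, and were 0 without Txnip-/- replicate 1 or 2 at TN. Members called lower at TN were 1 (Uqcrc1) with median centring and without the fold threshold, and the median was -0.14 with median centring and -0.13 to -0.08 with libraries left out. At TN against RT in WT, members called lower were 13 with upper-quartile scaling, 18 with median centring, 16 without the fold threshold (beside 10.1%, 14.7% and 9.87% of all genes) and 1 to 7 with libraries left out, and the medians were -0.26, -0.33 and, with libraries left out, -0.18 to -0.12. In Txnip-/- they were 16, 21, 19 (beside 12.3%, 19.5% and 13.5%) and 4 to 10, with medians of -0.32, -0.41 and -0.24 to -0.21. For the counts with libraries left out the shares of all genes are not given here. Both scalings shift all genes at TN downwards, and dropping the fold threshold adds genes by construction. The cause of the other changes was not tested. At RT 0 members were called under each alternative. The same held for the interaction under the alternatives run for it, which leave out the authors' log-scale values (one table per temperature). The read count behind the TPM of a gene is unknown, which limits the lowest genes, Atp5g1 and Atpif1.

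The fit with a replicate block gave the same member calls: 0 higher and 0 lower at RT, 2 and 0 at TN, 0 and 0 for the interaction, 2 and 4 in WT and 2 and 10 in Txnip-/-. Over all genes it gave 48 higher and 52 lower at RT, in place of 91 and 87. Its counts over all genes in the other comparisons are not given here. Libraries of the same number did not deviate together throughout (r of 0.3, -0.0125 and 0.216 at RT, and 0.0393, 0.0231 and -0.0289 at TN), so the numbers were not taken as pairs. With the block the adjusted p of Uqcrc1 at TN was 0.125, at TN against RT in WT 6 of the 9 complex III genes passed the adjusted p (not Uqcrc1 at 0.116, Cyc1 at 0.0848 or Uqcrb at 0.056), and that of Atp5e in Txnip-/- was 0.0642.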
